A study of Mus musculus with 80 samples.

Results

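The choroid plexus is the secretory epithelium of the brain ventricles, and 8 of its marker genes were followed here: Ttr, Enpp2, Clic6, Kcnj13, Folr1, Kl, Otx2 and Col8a1. They were taken by name from the 27179 genes of a count table, and 7 of the 8 were among the 13016 genes that reached 5 CPM in 8 or more libraries, where CPM is the count scaled to a common library size. Folr1 did not reach that level and entered no main test between states or regions, but it was kept in the correlations between members. RNA had been sequenced from the hypothalamus, amygdala, neocortex, hippocampus and cerebellum of 8 virgin and 8 primiparous C57BL/6 females, where primiparous means that a female had raised a first litter. The study's methods give the substrain as C57BL/6J. Each library came from 1 region of 1 mouse, so that replicates are separate animals, and 77 of 80 libraries were used (8 of each state for the hypothalamus and neocortex, and 7 virgin and 8 primiparous for each other region). Mating began at 8 weeks of age with 2 weeks beside a male, the labels place the harvest 3 weeks after weaning, and the virgins were of the same age and had met no male. The study's methods give a longer interval after weaning than the labels do. The hypothalamus was taken whole and the other regions from the left side of the brain, and the choroid plexus itself was not dissected as a sample. The libraries of a region were pooled for sequencing, so that region and sequencing pool cannot be told apart.

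The choroid plexus lies in the lateral ventricles, the third ventricle and the fourth ventricle and makes cerebrospinal fluid. The lateral ventricle runs along the hippocampus, the third ventricle divides the hypothalamus, and the fourth ventricle lies under the cerebellum. The plexus secretes carriers and enzymes into the fluid, moves ions, water and folate across its epithelium, and keeps its identity through the homeodomain factor Otx2. In bulk tissue, fewer cells of a type and less RNA per cell cannot be told apart.

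Transthyretin (Ttr), the carrier of thyroxine and retinol that the epithelium secretes, varied 149-fold among hippocampal and 185-fold among cerebellar libraries. In the hippocampus, Ttr stood at 3219 CPM in virgin 4487, 784 CPM in virgin 4488, 923 CPM in primiparous 421 and 3598 CPM in primiparous 425, while the other 11 hippocampal libraries lay between 24.1 and 137 CPM. In the cerebellum, it stood at 548 CPM in virgin 409, 501 CPM in virgin 4489, 1200 CPM in virgin 4491 and 3334 CPM in primiparous 421, while the other 11 lay between 18.1 and 115 CPM. Both states are among these 8 libraries, with 5 virgin and 3 primiparous, and animal 421 alone was high in both regions. No such gap was seen in the remaining regions, where Ttr ran from 5.17 to 78.8 CPM in the neocortex, from 2.08 to 45.8 CPM in the amygdala and from 0.0941 to 6.50 CPM in the hypothalamus.

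**Figure D1:**
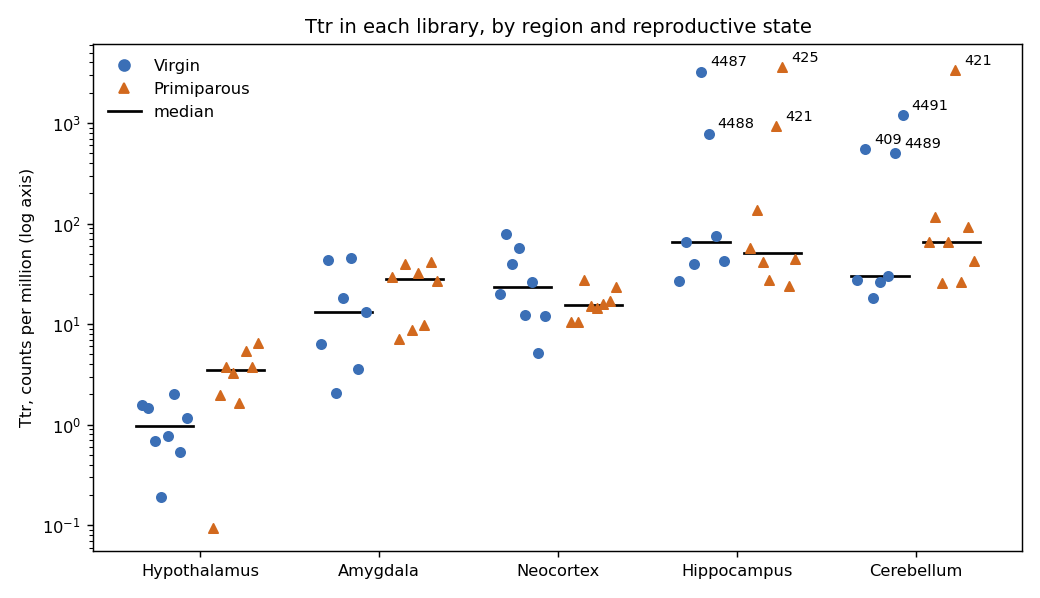
Ttr in CPM (log axis) for each library, by region and state (virgin circles, primiparous triangles, black lines medians); numbers name the animals of the 8 libraries that stand apart. The 4 hippocampal ones lie at 784 to 3598 CPM and the 4 cerebellar ones at 501 to 3334 CPM, above every other library.

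Upstream sequence for the members that share this pattern is shown from the RefSeq promoter table (GRCm38.p6), which held windows for 4 of the members: Kcnj13, Kl, Col8a1 and 4 start sites of Otx2. Each line gives the 250 bases before a start site, 5′ to 3′ on the strand of the gene, and capitals mark the letters TAATCC or their reverse complement GGATTA, the core that Otx2 and related homeodomains bind.
Otx2, chr14:48665110-48665359, minus strand: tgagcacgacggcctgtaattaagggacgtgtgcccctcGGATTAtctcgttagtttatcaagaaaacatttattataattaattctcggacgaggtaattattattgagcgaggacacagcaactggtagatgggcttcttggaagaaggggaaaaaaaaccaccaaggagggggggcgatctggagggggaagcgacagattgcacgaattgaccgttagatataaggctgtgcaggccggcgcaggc
Kcnj13, chr1:87394730-87394979, minus strand: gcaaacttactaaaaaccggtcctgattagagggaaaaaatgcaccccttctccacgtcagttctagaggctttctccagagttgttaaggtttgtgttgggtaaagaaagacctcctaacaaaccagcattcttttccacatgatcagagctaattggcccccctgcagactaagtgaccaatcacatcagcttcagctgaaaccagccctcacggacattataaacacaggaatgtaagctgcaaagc
Kl, chr5:150952357-150952606, plus strand: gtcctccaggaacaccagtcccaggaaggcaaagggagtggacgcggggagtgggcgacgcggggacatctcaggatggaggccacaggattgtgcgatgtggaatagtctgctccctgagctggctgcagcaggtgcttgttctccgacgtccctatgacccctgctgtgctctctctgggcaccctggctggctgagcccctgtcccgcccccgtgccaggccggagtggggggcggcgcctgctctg
Col8a1, chr16:57754738-57754987, minus strand: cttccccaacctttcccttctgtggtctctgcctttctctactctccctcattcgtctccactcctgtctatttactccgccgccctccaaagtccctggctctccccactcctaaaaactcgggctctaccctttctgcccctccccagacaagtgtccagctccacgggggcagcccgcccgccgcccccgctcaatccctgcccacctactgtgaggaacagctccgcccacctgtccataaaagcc
Of the 7 windows, 1 held the letters on either strand, an Otx2 start with GGATTA beginning 211 bases upstream. Among all 32851 windows of this length in the table, 6.25% held them. The windows of Kcnj13, Kl and Col8a1 and the 3 other Otx2 windows did not hold these letters.

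The other secreted protein, Enpp2 (autotaxin, which makes lysophosphatidic acid; chromosome 15, 54838901 to 54952789 in GRCm38), followed Ttr in the same 8 libraries. Enpp2 stood at 589 to 1988 CPM in the 4 high hippocampal libraries against 135 to 246 CPM in the other 11, and at 346 to 1609 CPM in the 4 high cerebellar libraries against 117 to 235 CPM in the other 11. The groups did not overlap in either region, although outside these libraries Enpp2, which oligodendrocytes also make, was abundant in every region.

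Transport genes showed the same libraries high. Clic6, an intracellular chloride channel protein (chromosome 16, 92498147 to 92541241), stood at 25.9 to 85.1 CPM against 4.79 to 13.9 CPM in the hippocampus and at 26.4 to 82.6 CPM against 12.8 to 23.0 CPM in the cerebellum. Kcnj13, the potassium channel Kir7.1 of the apical membrane (chromosome 1, 87384577 to 87394729), stood at 6.50 to 33.6 CPM against 0.390 to 1.64 CPM in the hippocampus and at 5.61 to 33.4 CPM against 1.05 to 4.03 CPM in the cerebellum. Folr1, the folate receptor that carries folate into the fluid (chromosome 7, 101858331 to 101870788), stood at 7.18 to 28.4 CPM against 0.325 to 1.35 CPM in the hippocampus and at 3.85 to 21.5 CPM against 0.168 to 1.22 CPM in the cerebellum. For all 3 genes, the lowest of the high libraries lay above the highest of the rest in both regions. Kcnj13 reached 5 CPM in 2 libraries outside these 8, so that it passed the filter on low counts only through them.

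Kl, or klotho, the co-receptor for fibroblast growth factor 23 (chromosome 5, 150952607 to 150993817), stood at 61.8 to 176 CPM against 24.8 to 34.0 CPM in the hippocampus and at 17.9 to 113 CPM against 2.48 to 12.5 CPM in the cerebellum. Otx2 (chromosome 14, 48656781 to 48667644) stood at 3.49 to 9.64 CPM against 0.625 to 2.92 CPM in the hippocampus, and at 11.9 to 15.8 CPM against 6.06 to 10.5 CPM in the cerebellum. Col8a1, a collagen of basement membranes (chromosome 16, 57624256 to 57754737), stood at 5.18 to 21.6 CPM against 0.636 to 1.49 CPM in the hippocampus and at 2.83 to 15.5 CPM against 0.505 to 3.25 CPM in the cerebellum. The members other than Ttr were thus all higher in each of the 4 hippocampal libraries than in any other hippocampal library. In the cerebellum the same held for all of them but Col8a1, which overlapped in virgin 4489. Ttr is left out of these statements because its gap defined the libraries. No share of all genes that separate the same libraries is given, so these separations are a description. The libraries were picked by Ttr after the values were seen, so no test is given between them and the rest.

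The excess of each member was set against that of Ttr. In the 8 high libraries, the excess over the median of the region per 100 CPM of Ttr excess was 40.1 to 56.4 CPM for Enpp2 in the hippocampus and 37.7 to 43.7 CPM in the cerebellum. For Clic6 it was 1.86 to 3.09 CPM in the hippocampus and 1.77 to 1.99 CPM in the cerebellum, for Kcnj13 it was 0.666 to 0.906 CPM and 0.599 to 0.999 CPM, and for Folr1 it was 0.658 to 0.848 CPM and 0.599 to 0.779 CPM. For Otx2 it was 0.197 to 0.255 CPM and 0.186 to 1.02 CPM. The proportion to Ttr thus varied among the cerebellar libraries for Otx2 more than for Enpp2 or Clic6. The ranges of Enpp2, Clic6, Kcnj13, Folr1 and Otx2 overlapped between the regions. For Kl the excess was 4.03 to 4.36 CPM in the hippocampus and 2.72 to 3.29 CPM in the cerebellum, and for Col8a1 it was 0.520 to 0.650 CPM and 0.103 to 0.401 CPM. The ranges of Kl and Col8a1 did not overlap, with the hippocampal libraries above, and this is a description of 4 libraries per region without a test.

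A line was also fitted through all libraries of a region. Per 100 CPM of Ttr, Enpp2 rose by 47.8 ± 2.54 CPM (slope ± SE, n = 15) in the hippocampus and 43.5 ± 0.816 CPM (n = 15) in the cerebellum. Kl rose by 4.25 ± 0.0710 CPM and 3.22 ± 0.0786 CPM, and Kcnj13 by 0.899 ± 0.0166 CPM and 0.915 ± 0.0303 CPM. The level at which each line met 0 Ttr differed between the regions: 28.1 ± 0.913 CPM for Kl in the hippocampus against 3.40 ± 0.736 CPM in the cerebellum, and 1.70 ± 0.165 CPM for Otx2 in the hippocampus against 9.22 ± 0.523 CPM in the cerebellum. Over the 11 libraries below the gap, the slopes had wider errors, for Enpp2 76.5 ± 26.4 CPM in the hippocampus and 108 ± 14.7 CPM in the cerebellum, and for Kcnj13 0.174 ± 0.433 CPM and 1.54 ± 0.686 CPM. The cerebellar slopes of Enpp2, of Clic6 (7.69 ± 2.32 CPM against 1.99 ± 0.0781 CPM with all libraries) and of Kl (6.77 ± 1.77 CPM against 3.22 CPM) were steeper below the gap. Those of Otx2 (2.37 ± 1.19 CPM against 0.238 ± 0.0559 CPM) and Col8a1 (1.42 ± 0.834 CPM against 0.401 ± 0.0287 CPM) were steeper with wide errors, and that of Folr1 was 0.296 ± 0.338 CPM against 0.636 ± 0.0120 CPM.

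**Figure D2:**
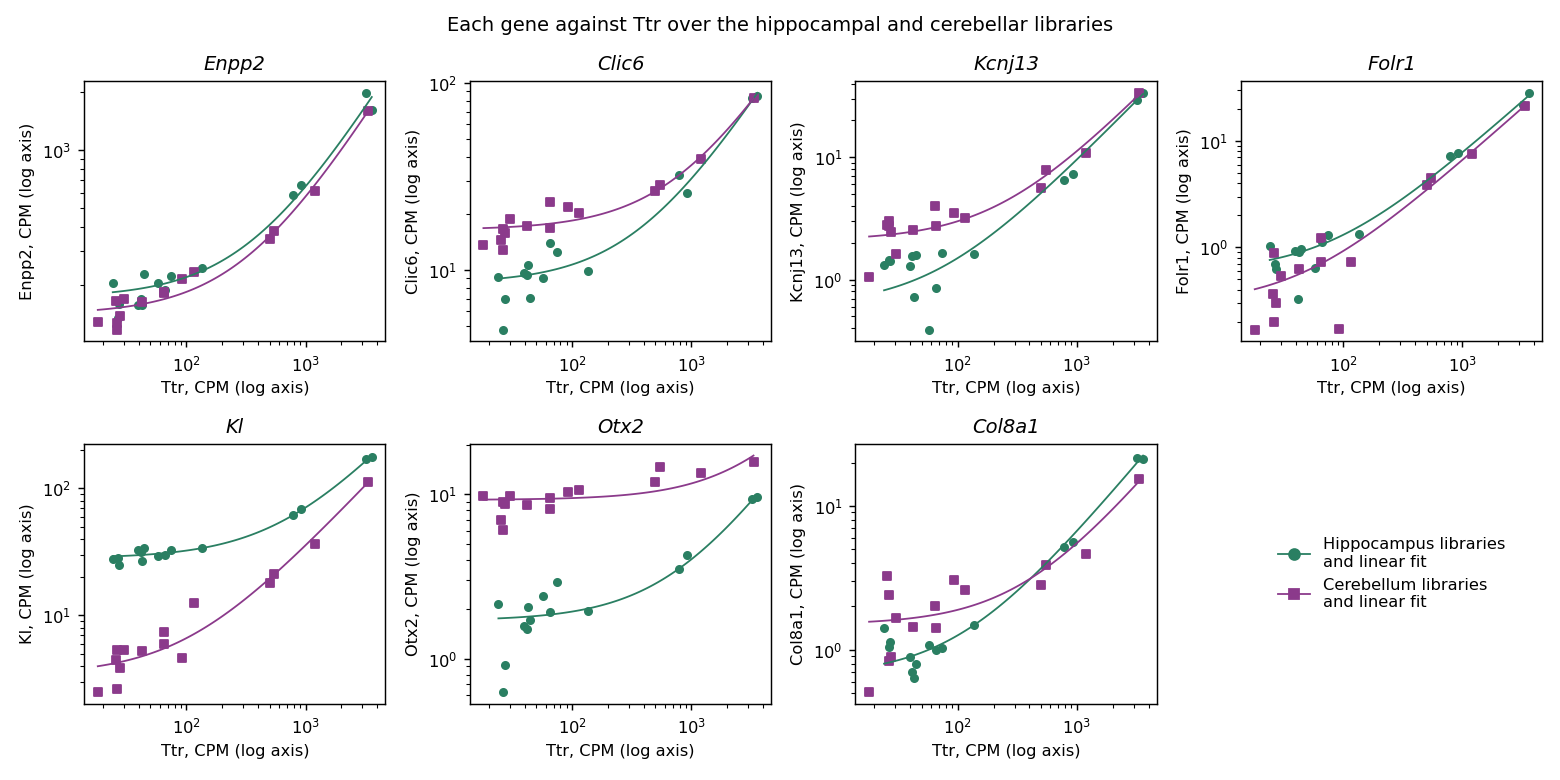
Each member in CPM against Ttr in CPM (both axes log) over the 15 hippocampal libraries (circles) and 15 cerebellar libraries (squares), with the linear fit of each region. Below the gap the regions separate for Kl and Otx2, and in the 8 high libraries the members climb with Ttr.

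Within a region, joint variation was measured by Pearson's r of log2(CPM + 1) for the 28 pairs of members, with permutation p-values adjusted over 140 pairs. Because the hippocampal and cerebellar libraries fall into separate clusters, no r over all libraries is given for these regions. Every pair passed there with the libraries picked by Ttr included. No share of all gene pairs is given beside that count, so it is not read as a result. Among the 11 libraries below the gap, 1 pair of 28 passed in the hippocampus (median r 0.40) and 3 of 28 in the cerebellum (median r 0.55). Over all pairs of tested genes in the same libraries, 0.623% in the hippocampus and 1.76% in the cerebellum had an r at or above the lowest that passed, and the median r was 0.01 or less. The 3 cerebellar pairs were Ttr with Enpp2, Ttr with Clic6 and Ttr with Kl. For Ttr and Enpp2, r was 0.90 and rho 0.85 (permutation p = 0.00017 and 0.00185, adjusted p = 0.0103 and 0.0364), and r was 0.77 without the 2 libraries farthest from the median of Ttr.

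In the amygdala, where no library stood apart, 12 of 28 pairs passed (median r 0.56), while 3.56% of all pairs of tested genes reached the lowest r that passed, 0.57. Ttr and Kcnj13 had r = 0.81 and rho = 0.79 (permutation p = 8e-05 and 0.00072, adjusted p = 0.00022 and 0.00348), and r was 0.61 without the 2 libraries farthest in Ttr. Clic6 and Kl had r = 0.83 and rho = 0.74 (permutation p = 0.00022 and 0.00258, adjusted p = 0.00056 and 0.00821), and r was 0.82 without the 2 farthest. In the neocortex 5 of 28 pairs passed (median r 0.26), where 11.3% of all gene pairs reached the lowest r that passed, with Kl and Otx2 the highest at r = 0.73 and rho = 0.74 (permutation p = 0.00104 and 0.00164, adjusted p = 0.00251 and 0.00596), and r was 0.58 without the 2 farthest in Kl. In the hypothalamus 2 of 28 pairs passed (median r 0.10), a share near the 5.18% of all gene pairs that reached the lowest of them, and these were Kcnj13 with Kl and Clic6 with Folr1. The hypothalamic r of Kcnj13 and Kl was 0.71 (rho 0.43, permutation p = 0.00285 and 0.1, adjusted p = 0.00644 and 0.162) and fell to 0.11 without the 2 libraries farthest in Kcnj13, so that it rests on those libraries. For Clic6 and Folr1 r was 0.64 (rho 0.54, permutation p = 0.00852 and 0.0331, adjusted p = 0.0175 and 0.0635) and fell to 0.29 without the 2 libraries farthest in Clic6, so that it too rests on those libraries. With the 8 high libraries left out of the family of 140 pairs, 14 pairs passed, 5 of them in the amygdala, 4 in the neocortex and 1 in the hypothalamus.

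Levels of a member in 1 region of an animal did not track its level in another region by this test. Over the 10 pairs of regions and 8 members, 0 of 80 correlations passed (6 had an unadjusted p under 0.05, smallest adjusted p = 0.06, permutation test over 14 to 16 animals).

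The members differed in the region where their median was highest. Medians are over all libraries of a region, and without the 4 high libraries that of Ttr was 42.7 CPM for the hippocampus and 30.2 CPM for the cerebellum. Levels between genes are compared only as RPKM, the CPM per kilobase of exon. In the hippocampus the median was 48.5 RPKM for Ttr, 35.3 for Enpp2, 3.49 for Kl, 2.51 for Clic6, 1.24 for Kcnj13, 0.486 for Otx2, 0.445 for Folr1 and 0.137 for Col8a1. In the hypothalamus Enpp2 led with 31.4 RPKM, followed by Clic6 with 7.75, while Ttr was at 1.36. The order of the members thus differed between these regions, with Ttr first in the hippocampus and below Enpp2 and Clic6 in the hypothalamus.

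Ttr had a median of 65.0 CPM in the cerebellum, 57.5 for hippocampus, 18.1 in the amygdala, 16.3 in the neocortex and 1.62 in the hypothalamus. Hypothalamic Ttr was lower than in each other region by edgeR's quasi-likelihood test over all 10 groups, with log2 differences from -3.62 (SE 0.950, adjusted p = 0.000566, against the amygdala) to -8.44 (SE 0.973, adjusted p = 5.16e-12, against the hippocampus). Against the hippocampus the log2 difference was -4.91 (SE 0.428) without the 8 high libraries. Cerebellum and hippocampus, neighbours in the order, did not differ by the edgeR test (log2 -0.76, SE 0.661, adjusted p = 0.289). Neocortex and amygdala did not either (log2 0.05, SE 0.717, adjusted p = 0.955). The error of a gene in this fit comes from all 10 groups, not from the 2 regions compared. Without the 8 high libraries, none of them neocortical or amygdalar, the SE of the latter difference was 0.329 (edgeR adjusted p = 0.897).

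Kl was highest in the hippocampus, with a median of 32.6 CPM against 10.6 in the hypothalamus, 10.3 in the amygdala, 5.35 in the cerebellum and 3.65 in the neocortex. It was higher in the hippocampus than in the neocortex by a log2 difference of 3.79 (SE 0.386, adjusted p = 1.06e-13) with all libraries and 2.95 (SE 0.146) without the 8 high ones. Hypothalamus and amygdala did not differ in Kl by the edgeR test (log2 0.06, SE 0.369, adjusted p = 0.9). Without the 8 high libraries the SE was 0.135 (edgeR adjusted p = 0.718).

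Otx2 was highest in the cerebellum, with a median of 9.68 CPM against 2.24 in the hypothalamus, 2.05 in the hippocampus, 0.822 in the amygdala and 0.548 in the neocortex. The cerebellar libraries lay at 6.06 to 15.8 CPM, and Otx2 was higher there than in the neocortex by a log2 difference of 4.02 (SE 0.335, adjusted p = 3.03e-18) with all libraries and 3.84 (SE 0.297) without the 8 high ones. The cerebellar level of Otx2 was therefore present in libraries with little Ttr.

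Clic6 and Col8a1 were highest in the hypothalamus, the region with the least Ttr. Clic6 had a median of 30.3 CPM there, 18.7 in the cerebellum, 11.4 in the amygdala, 9.82 in the hippocampus and 3.42 in the neocortex. Its hypothalamic level lay above the neocortex by a log2 difference of 2.90 (SE 0.327). Against the cerebellum, the next in order, the log2 difference was 0.35 (SE 0.293, adjusted p = 0.268) with all libraries and 0.85 (SE 0.174, adjusted p = 1.27e-05) without the 8 high ones, and against the hippocampus the log2 difference was 0.32 (SE 0.290, adjusted p = 0.317) with all libraries and 1.56 (SE 0.176, adjusted p = 4.94e-12) without the 8 high ones. Col8a1 had a median of 5.67 CPM in the hypothalamus and 1.07 in the hippocampus, and their log2 difference went from 0.19 (SE 0.373, adjusted p = 0.653) to 2.31 (SE 0.190) without these libraries. Against the neocortex, the next in order with a median of 2.68 CPM, the log2 difference of Col8a1 was 0.86 (SE 0.380, adjusted p = 0.0348) with all libraries. Against the amygdala it was 0.80 (SE 0.393, edgeR adjusted p = 0.0618) with all libraries and did not pass. That difference passed without the 8 high libraries (0.80, adjusted p = 5.41e-06) and with the animal as a block (0.81, adjusted p = 0.0425). With the animal as a block, both differences from the hippocampus passed with all libraries (Clic6 0.74, adjusted p = 0.0153, and Col8a1 0.89, adjusted p = 0.0306).

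For Enpp2 the neocortical median was 246 CPM, the hippocampal 204, the cerebellar and the hypothalamic 182 each, and that of the amygdala 121. Its log2 difference between hippocampus and neocortex was 1.01 (SE 0.309, adjusted p = 0.00335) with all libraries and turned to -0.31 (SE 0.0800, adjusted p = 0.000639) without the 8 high ones. With the animal as a block it was 0.58 (adjusted p = 0.0868). Kcnj13 had medians of 2.99 CPM (cerebellum), 2.86 (amygdala), 1.66 (neocortex), 1.57 (hippocampus) and 0.229 (hypothalamus), where 4 of 16 libraries held no read of it. Folr1 had medians of 0.522 to 1.02 CPM over the 5 regions.

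**Figure D3:**
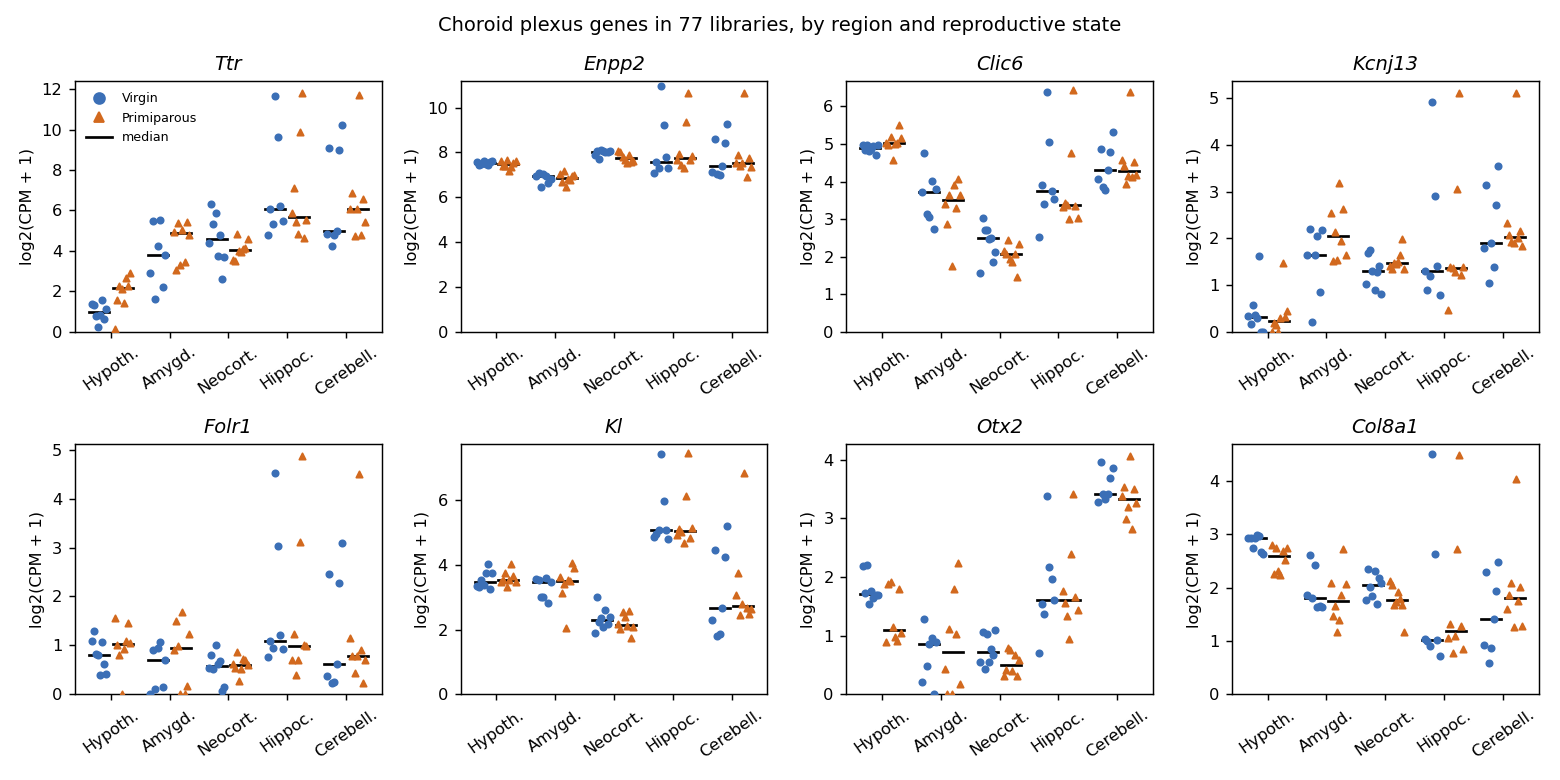
Each member on the log2(CPM + 1) scale in all 77 libraries, by region and state, with medians as black lines. Ttr is lowest in the hypothalamus, Kl highest in the hippocampus, Otx2 highest in the cerebellum, and Clic6 and Col8a1 highest in the hypothalamus outside the libraries that stand apart.

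Over the 10 pairs of regions, 46 of 70 member differences passed at an adjusted p under 0.05, against 73.0% of all genes tested, so the members' share was not above the background, which ran from 58.7% to 81.1% over the pairs. Otx2 passed in 9 of 10 pairs, Ttr in 8, Enpp2, Clic6 and Kl in 7 each, Kcnj13 in 6 and Col8a1 in 2. The count includes Kcnj13, which passed the filter only through the 8 high libraries, and without it 40 of 60 passed. Without the 8 high libraries 55 of 70 passed, against 70.4% of all genes. The same fit tested whether the difference between primiparous and virgin females differed between regions. Of these 70 tests, 0 passed by edgeR (0 at an unadjusted p under 0.05, where 17.4% of all genes lay, smallest adjusted p = 0.153), against 4.27% of all genes, and 0 by limma-voom. Standard errors were wide, 1.32 to 2.05 for Ttr, so that only large differences could have been detected. The 8 high libraries widened them also between other regions: for Enpp2, neocortex minus amygdala, the SE was 0.622 with them and 0.147 without. The count of 0 is therefore no evidence of equal differences. Without the 8 high libraries 1 passed, Col8a1 between hypothalamus and cerebellum (log2 -1.63, SE 0.376, adjusted p = 0.0212, and -1.22 with adjusted p = 0.329 in all libraries), against 3.29% of all genes. The libraries left out were picked by Ttr, which Col8a1 follows, and 3 of the 4 cerebellar ones were virgin, so the choice itself favours that direction and the pass is no evidence of a difference.

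The comparison of primiparous with virgin females asks which genes still differ after the pups have been weaned. In the hypothalamus, Ttr was the only member called, and its level there was low. Ttr ran from 0.189 through a median of 0.970 to 2.0 CPM in the 8 virgin libraries and from 0.0941 through 3.52 to 6.50 CPM in the 8 primiparous libraries. Of the primiparous libraries, 5 lay above every virgin library, 2 lay within the virgin range and 413 lay below it, so the groups overlapped. Mean Ttr was 3.30 ± 2.06 CPM (SD, n = 8) in primiparous and 1.05 ± 0.606 CPM (SD, n = 8) in virgin females, a log2 fold change of 1.52 (SE 0.454, edgeR adjusted p = 0.0208). The 1 member higher in primiparous females out of 7 tested stands beside 10.8% of all genes in that direction, and 22.6% of all genes passed in either direction (11.8% lower). At an unadjusted p under 0.05 stood 3 of 7 members, Ttr, Otx2 and Col8a1, and 37.1% of all genes. The members' median log2 fold change was -0.08, against 0.01 over all genes. The call for Ttr was lost under 5 alternatives: limma-voom, the study's own test (log2 0.92, adjusted p = 0.402), edgeR with the animal number series as a covariate (log2 1.63, adjusted p = 0.188), edgeR with a length and GC offset (log2 1.55, adjusted p = 0.0805), 1 edgeR fit of all 10 groups (log2 1.44, adjusted p = 0.596) and limma-trend on the deposited log2 table (log2 1.23, adjusted p = 0.0545). Numbers of 3 digits belong to 2 of 8 virgin and 7 of 8 primiparous animals, so series and state cannot be fully told apart.

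The other hypothalamic members did not pass. Col8a1 ran from 5.15 through 6.61 to 6.92 CPM in virgins and from 3.74 through 5.06 to 5.98 CPM in primiparous females. Its log2 fold change was -0.37 (SE 0.141, edgeR adjusted p = 0.0565), with every primiparous library under the virgin mean and 4 of 8 under every virgin library. Otx2 ran from 1.89 through 2.28 to 3.60 CPM in virgins and from 0.847 through 1.14 to 2.78 CPM in primiparous females. For Otx2 the log2 fold change was -0.67 (SE 0.277, edgeR adjusted p = 0.0796), with 5 of 8 primiparous libraries under every virgin library. The directions of Col8a1 and Otx2 were thus opposite to that of Ttr in the same libraries. Clic6 lay at 24.9 to 30.4 CPM in virgins and above every virgin library in 7 of 8 primiparous ones, with 418 below them all at 22.7 CPM (log2 0.17, SE 0.0918, edgeR adjusted p = 0.179, and 0.23 with adjusted p = 0.027 without 418). Enpp2 (-0.08), Kl (0.01) and Kcnj13 (-0.86, SE 0.801) had edgeR adjusted p-values from 0.357 to 0.961. Folr1, tested between states only without the filter on low counts, had a log2 fold change of 0.35 (SE 0.449, edgeR adjusted p = 0.653).

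**Figure D4:**
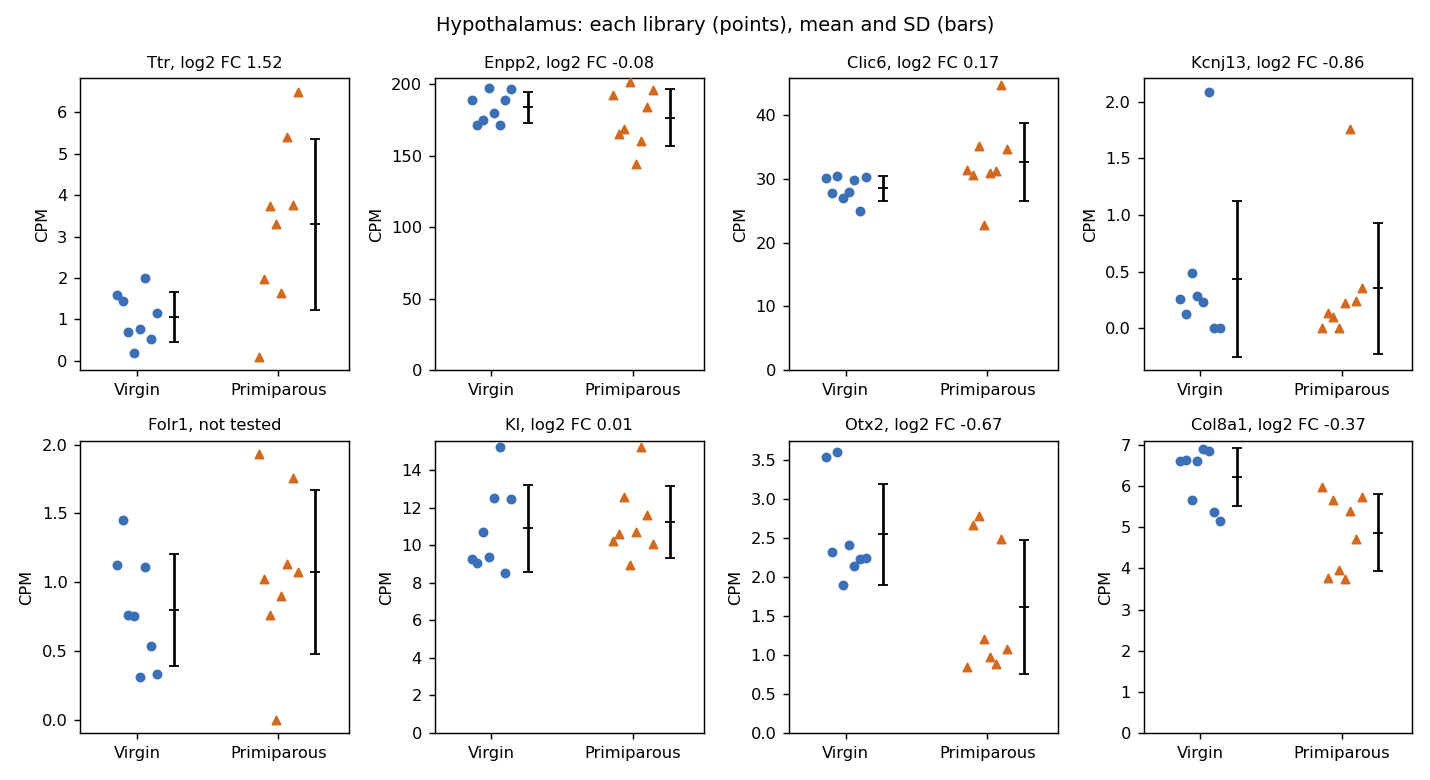
Hypothalamic CPM of each member in 8 virgin (circles) and 8 primiparous (triangles) libraries, with the mean and SD as bars and the fitted log2 fold change (primiparous over virgin) above each panel. Ttr lies higher in 5 primiparous libraries than in every virgin library, and Col8a1 and Otx2 lie lower on average.

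Markers of other cells in the same hypothalamic libraries were counted beside this result. Of a wider list of 33 choroid plexus genes, 18 were tested in the hypothalamus, 1 was higher in primiparous females (Ace, angiotensin-converting enzyme, log2 0.18, adjusted p = 0.0279) and 3 were lower by edgeR: Cab39l, a scaffold of kinase signalling (-0.27, adjusted p = 0.0294), Prlr, the prolactin receptor (-0.27, adjusted p = 0.0147), and Htr2c, a serotonin receptor (-0.26, adjusted p = 0.0106). These 4 of 18 stand beside the 22.6% of all genes that passed there, so the share was not above the background. The list's median log2 fold change was -0.03 against 0.01 over all genes, and Prlr and Htr2c are also made by neurons. The counts for the other lists are of few genes and stand beside the 10.8% of all genes that were higher. Of the ependymal genes 1 of 5 tested was higher (Ccdc153), with a summed level of 54.4 to 81.4 CPM in virgin and 56.8 to 118 CPM in primiparous libraries. Of the blood genes 2 of 3 tested were higher (Hba-a2 and Alas2), with a summed level of 25.2 to 53.5 CPM in virgin and 32.0 to 103 CPM in primiparous libraries. Endothelial Cldn5 (1 of 6 tested) and mural Pdgfrb and Acta2 (2 of 4) were also higher. Of the neuronal genes 1 of 4 was higher (Rbfox3) and 2 were lower (Syt1 and Snap25), beside the 11.8% of all genes that were lower. Of the meningeal (7), pituitary (4) and thalamic (4) genes tested, 0 were called. The part of these cells in the difference in Ttr was not tested.

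In the other regions no member passed between states. In the cerebellum, where 0.707% of all genes passed (0.599% higher and 0.108% lower in primiparous females), 0 of 7 members did by edgeR. None of the 7 had an unadjusted p under 0.05, where 19.5% of all genes lay, and 0 passed by DESeq2 or limma-voom, with log2 fold changes from -0.20 to 0.84. Over all regions, DESeq2 gave no adjusted p-value for some member tests. In every DESeq2 count these stand as not passed. Ttr ran from 18.1 through 30.2 to 1200 CPM in virgin and from 25.6 through 65.2 to 3334 CPM in primiparous cerebellum (log2 0.54, SE 1.35, edgeR adjusted p = 0.863). Its positive sign rests on primiparous 421. The other primiparous libraries lay at 25.6 to 115 CPM, under the virgin mean of 336 CPM. For Enpp2, Kl and Kcnj13, too, 421 was the only primiparous library above the virgin mean. Without 421, 0 members passed by edgeR and 2 had an unadjusted p under 0.05. Without the 4 high cerebellar libraries, which leaves 4 virgin and 7 primiparous ones, Ttr had a log2 fold change of 1.29 (SE 0.459, edgeR adjusted p = 0.298), Col8a1 of 1.27 (SE 0.351, adjusted p = 0.194) and Kl of 0.89 (SE 0.300, adjusted p = 0.252). In that fit 0 of 7 members and 0 of 13016 genes passed by edgeR, and 6 members had an unadjusted p under 0.05, as did 13.5% of all genes. Since 3 of the 4 libraries left out for high Ttr were virgin, the choice favours that direction here too.

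In the hippocampus 0 of 13016 genes passed (961 at an unadjusted p under 0.05, 7.38%), and among the members 0 of 7 did (0 at an unadjusted p under 0.05, and 0 by DESeq2 or limma-voom). Hippocampal log2 fold changes of the members lay between -0.22 and 0.05 with standard errors of 0.562 to 1.42, so that only large differences could have been detected beside the 2 virgin and 2 primiparous libraries that stand apart. Without these 4 libraries the members' log2 fold changes lay between -0.25 and 0.32, and 0 of 7 passed (0 at an unadjusted p under 0.05) beside 0.00768% of all genes, and 11.9% at an unadjusted p under 0.05.

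In the neocortex 0 of 13016 genes passed and 0 of 7 members (0 by DESeq2 or limma-voom), while 2 members, Otx2 (log2 -0.77, SE 0.310, edgeR adjusted p = 0.485) and Clic6 (-0.48, SE 0.223, adjusted p = 0.501), were among the 9.81% of genes at an unadjusted p under 0.05. Neocortical Ttr had a mean of 31.4 ± 25.5 CPM (SD, n = 8) in virgin and 16.7 ± 5.81 CPM (SD, n = 8) in primiparous females (log2 -0.90, SE 0.443, edgeR adjusted p = 0.5). Each primiparous library lay under the virgin mean and none lay outside the virgin range. In the amygdala 0 of 13016 genes passed and 0 of 7 members (0 at an unadjusted p under 0.05, 11.9% of all genes, and 0 by DESeq2 or limma-voom), with log2 fold changes from -0.32 to 0.75. Kcnj13 in the amygdala was the highest of these (log2 0.75, SE 0.418, edgeR adjusted p = 0.488).

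Genes outside the members that most resembled Ttr were found from r over all 77 libraries after the mean of each region and state was subtracted from log2(CPM + 1). The libraries share depth and the 8 high libraries, so r is given as a description. The 10 nearest to Ttr were F5 (coagulation factor V, r = 0.91), Slc4a5 (a bicarbonate transporter, 0.89), Prlr (0.87), 1500015O10Rik (augurin, a secreted peptide precursor, 0.85), Col8a2 (0.82), Ace (0.81), Abca4 (0.80), Sema3b (0.79), Slc2a12 (0.79) and Drc7 (0.76). Without the 8 high libraries, r to Ttr was 0.58 for F5 and 0.18 to 0.50 for the other 9. F5, Slc4a5, 1500015O10Rik and Abca4 passed the filter on low counts only through these libraries, so their place among the nearest is partly set by the filter. Among the other members, r to Ttr was 0.88 for Enpp2, 0.87 for Kcnj13, Folr1 and Kl, 0.86 for Clic6, 0.81 for Col8a1 and 0.71 for Otx2. Without the 8 high libraries it was 0.65 for Clic6, 0.55 for Kcnj13, 0.52 for Kl, 0.51 for Otx2, 0.47 for Enpp2, 0.38 for Folr1 and 0.19 for Col8a1.

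The nearest genes of the other members were largely these again. Slc4a5, F5 and Prlr were nearest to Enpp2 (r 0.92 to 0.95), and Prlr, F5 and Slc4a5 were also the 3 nearest to Folr1 and to Kl. Prlr, Ace and Slc2a12 were nearest to Kcnj13 (0.86 to 0.87), Slc4a5, Prlr and Ace to Clic6 (0.84 to 0.86), and Ace, Slc4a5 and Abca4 to Col8a1 (0.87 to 0.90). Otx2 was nearest to other genes, A2m (0.72), Mycbpap (0.69) and Rdh5 (0.69), at lower r.

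The filter on low counts let 18 of the 33 genes of the wider choroid plexus list through, 4 of them only with the 8 high libraries, so r to Ttr was taken for all 33 without the filter. Of these, 32 had r above 0.5 (median 0.72), against 127 of 24069 genes with a read overall (0.528%, median 0.01). Slc29a4, a monoamine transporter, was the exception at 0.44. The 6 most abundant genes of the list were Igf2 (insulin-like growth factor 2, also made by the meninges, r = 0.61), Htr2c (0.64), Slc4a2 (a chloride and bicarbonate exchanger, 0.66), Cab39l (0.68), Igfbp2 (0.74) and Slc29a4. In the 4 high hippocampal libraries Igf2 stood at 163 CPM in primiparous 425, 131 CPM in virgin 4487, 83.2 CPM in virgin 4488 and 69.3 CPM in primiparous 421, against a hippocampal median of 44.2 CPM. The cerebellar median of Igf2 was 109 CPM. Of the 4 high cerebellar libraries, primiparous 421 (197 CPM) and virgin 4491 (123 CPM) lay above it. Virgin 409 (102 CPM) and virgin 4489 (98.2 CPM) lay below it. Without the 8 high libraries 1 of 33 genes had r above 0.5 (median 0.31), against 13 of 23887 genes overall (0.0544%, median 0.01).

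Markers of other cell types were measured in the same way. With all libraries, none of the ependymal (7), meningeal (8), endothelial (6), mural (5), oligodendrocyte (8), blood (4), pituitary (5), thalamic (5) or neuronal (4) genes had r above 0.5, and the median r was 0.36 for ependymal, 0.34 for blood, 0.16 for meningeal and -0.06 for endothelial genes. Without the 8 high libraries it was 0.34 for ependymal, 0.33 for blood, 0.33 for meningeal and 0.10 for endothelial genes, beside 0.31 for the wider choroid plexus list. The median r of the wider list thus lay above those of ependymal, blood and meningeal genes with the 8 libraries included and not without them. In the 4 high hippocampal libraries the summed level of the ependymal genes was 27.4 to 38.0 CPM (median 32.3) against 18.9 to 36.8 CPM (median 22.1) in the other 11, so that the groups overlapped with 1 high library above all the rest. That of the wider choroid plexus list was 509 to 1169 CPM against 275 to 327 CPM, with no overlap. The summed blood genes were highest among all hippocampal libraries in primiparous 425 at 86.9 CPM, and the summed thalamic genes in virgin 4487 at 128.7 CPM, 2 of the libraries high in Ttr, and their part was not tested.

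**Figure D5:**
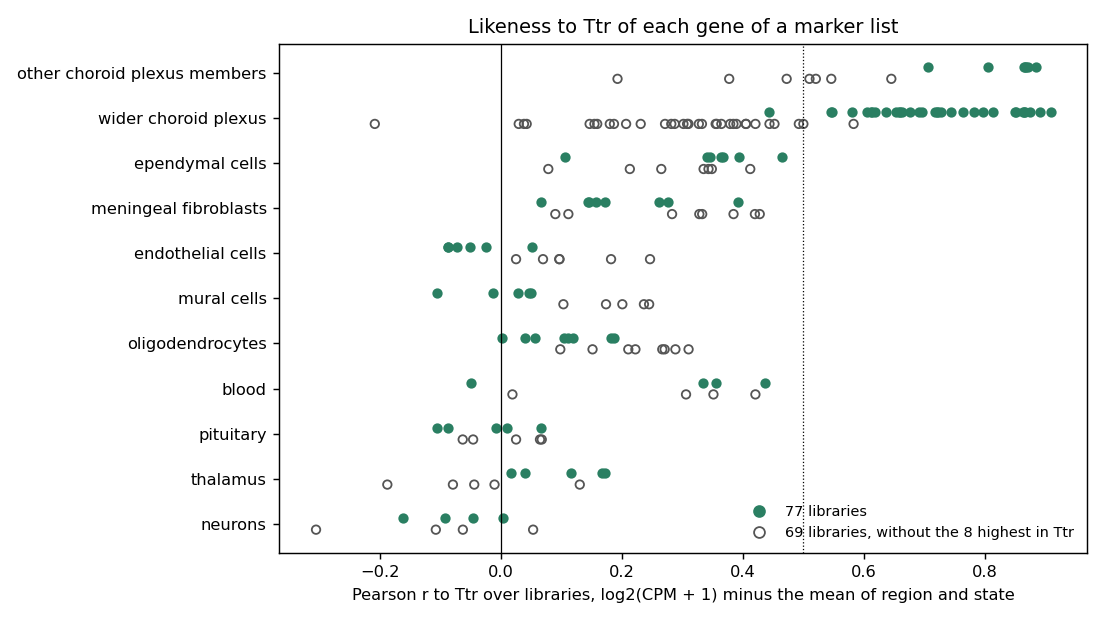
Pearson's r to Ttr (log2(CPM + 1) minus the mean of region and state) for each gene of the marker lists shown, without the filter on low counts, over 77 libraries (filled) and over 69 without the 8 highest in Ttr (open); the dotted line marks 0.5. Choroid plexus genes lie at 0.44 to 0.91 with all libraries, and their r falls without the 8.

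Library depth ran from 7959192 to 37871854 counted reads (median 17623900), so that 3 reads, the floor used here for a gene without reads, are a fraction of 1 CPM in each library. The summed markers of hypothalamus, cerebellum, hippocampus and neocortex had their highest median in the region they name. The genes taken to mark the amygdala did not do so in both states. Among primiparous libraries their median was 199 CPM in the cerebellum against 166 CPM in the amygdala. Among virgin libraries it was 171 CPM in the cerebellum against 174 CPM in the amygdala. The cerebellar genes Gabra6, Cbln3 and Pcp2 reached 190 CPM in hippocampal primiparous 413 against a median of 4.40 CPM in that group, and the hypothalamic genes Pmch, Hcrt and Avp reached 22.6 CPM in amygdalar primiparous 427 against 1.31 CPM. Leaving out either library left 0 members called between states in its region, and 48 (without 413) and 47 (without 427) rather than 46 region differences passed. Exons of Kcnj13 overlap Gigyf2, those of Otx2 overlap Otx2os1 and those of Enpp2 overlap Gm26684, each on the opposite strand, and the strand setting of the counting was not given in the sources used here, so reads in these stretches are uncertain.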

How the data were processed

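Poly(A) RNA libraries (single-end reads) of 5 brain regions were analysed for 8 choroid plexus genes. The authors aligned reads to mm10 with HISAT2 and counted uniquely mapped reads per gene with featureCounts; the deposited counts are whole numbers without normalization, for 27179 genes in 77 libraries, with 3 virgin libraries removed by the authors as outliers. The deposited log2 table holds 13016 genes; the study's methods describe log2(CPM + 4), but its values equal log2 of the count divided by a size factor, plus 4, within 5e-05, so it served only as an alternative. From the counts, CPM (total counted reads) and RPKM (GENCODE M21 exon length) were computed. Genes that reached 5 CPM in 8 or more libraries were tested with edgeR 4.0.16 (TMM, robust quasi-likelihood F-test) per region, and in 1 fit of all 10 groups for regions and interactions, with Benjamini-Hochberg adjustment over 13016 genes and a threshold of 0.05. The edgeR test gives no standard error, so each SE beside an edgeR log2 value is that value, without its sign, divided by the square root of F. Correlations used log2(CPM + 1) and 100000 permutations, two-sided. Alternatives used limma 3.58.1, DESeq2 1.42.0 and the settings named in the closing section, in R 4.3.3 and Python 3.11.15. The fits were tested on simulated data of 13016 genes with 200 changed. The same animals gave all regions, as the mouse numbers in the labels show, so equal numbers pair the libraries; same-animal libraries of 2 regions had median correlations of -0.005 to 0.09 against -0.01 to 0.004 for other animals. Libraries were said to stand apart where the largest gap in Ttr within a region exceeded 2 on the log2(CPM + 1) scale, a rule chosen after seeing the data. Non-member genes were named by rank of r to each member (10 for Ttr, 3 for each other member), by abundance in the wider choroid plexus list (6 genes) or by passing a state test there; markers of other cells were named after their values were seen. The members and lists were chosen with earlier results of these data known, and some were also taken from general knowledge of cell markers. Some results for further marker lists are not reported here.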

Additional observations from a re-analysis of the deposited data

Results flagged for a closer look

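Within groups of 1 region and state, the highest or lowest library was compared with the spread of the rest on the log2(CPM + 1) scale by Dixon's criterion, for 80 combinations of member and group. It marked 12, where chance marks about 1 in 20, or 4 of 80. The cerebellum of primiparous 421 accounted for 7 of them, at 3334 CPM for Ttr (others 25.6 to 115), 1609 for Enpp2 (others 117 to 235), 82.6 for Clic6, 33.4 for Kcnj13, 21.5 for Folr1, 113 for Kl and 15.5 for Col8a1; Otx2, at 15.8 CPM, was not marked. Kcnj13 was marked in the hypothalamus at 1.76 CPM in primiparous 425 and 2.09 CPM in virgin 4489 (others at most 0.358 and 0.484), and in the neocortex at 2.94 CPM in primiparous 427. Kl in the amygdala of primiparous 418 was low at 3.18 CPM (others 7.71 to 15.9), and Col8a1 in the neocortex of primiparous 4493 was low at 1.24 CPM (others 2.20 to 3.36).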

How the results depend on the processing

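The hypothalamic count of called members, 1, was 2 with DESeq2 and with the limma-trend test of log2(CPM + 4) (Ttr and Col8a1), 2 with that test on the deposited log2 table (Col8a1 and Otx2, with Ttr lost), 3 when it used log2(CPM + 1), and 0 with the animal number series as a covariate, with a length and GC offset and in 1 fit of all 10 groups; limma-voom also called 1, Otx2 in place of Ttr. Leaving out each library gave 1 to 3, with 3 without primiparous 415 and 2 without primiparous 413, 418 or 4493, and Ttr passed in all 16 (log2 1.27 to 1.72, adjusted p = 0.00407 to 0.0422). In the other regions 0 members passed between states under every alternative run, where DESeq2 tests without an adjusted p-value count as not passed. With animals entered as a replicate block, 43 of 70 region differences passed, with 3 gained and 6 lost, and 0 interactions. Interactions came to 1 without the 8 libraries high in Ttr, an alternative added after seeing the data whose choice of libraries favours that difference. In that setting 14 of 140 pairs within regions passed rather than 75, and 13 region differences that passed in either fit changed sign in log2 value: Enpp2 to 0.16 (hypothalamus minus cerebellum), -0.67 (cerebellum minus neocortex) and -0.31 (hippocampus minus neocortex), Kl to 1.18 (hypothalamus minus cerebellum) and -1.12 (cerebellum minus amygdala), Otx2 to 0.027 (hypothalamus minus hippocampus), Kcnj13 to 0.84 (cerebellum minus hippocampus), -0.40 (hippocampus minus neocortex) and -1.21 (hippocampus minus amygdala), Clic6 to 0.70 (cerebellum minus hippocampus) and -0.25 (hippocampus minus amygdala), and Col8a1 to -1.45 (hippocampus minus neocortex) and -1.51 (hippocampus minus amygdala). A further 2 that passed in neither fit also did, Col8a1 to 0.44 (cerebellum minus hippocampus) and Kcnj13 to -0.37 (cerebellum minus amygdala). Between regions of the same animals, 1 of 80 correlations passed on log2(CPM + 4) and 0 otherwise. The cause of these changes was not tested. Counts below about 1 CPM limit hypothalamic Ttr and Kcnj13 and Folr1 in every region. Intervals reflect the spread between animals, taken over all 10 groups in the region and interaction tests.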
